A study of Rattus norvegicus with 14 samples.

Results

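A group of 7 genes had a lower signal in the choroid plexus (CP) of ovariectomized (OVX) rats than of sham females: Gfra1, Crhbp, Lingo2, Syndig1, Fam3d, Adgrg1 and Impg1. They are 7 of the 15127 named genes tested, and each was read from the probe with the highest mean signal among the probes whose accession maps to its symbol. The genes were selected on the comparison of OVX with sham females, so their female values are a description without a test, and only the male comparison was tested. The CP was taken from both lateral ventricles of Wistar rats that were 2 months old at surgery. The groups were ovariectomized females (OVX, 3 arrays), sham-operated females (3 arrays), orchidectomized males (OOX, 4 arrays) and sham-operated males (4 arrays). Tissue was collected 2 weeks after surgery, and each array held 1 pool of RNA from 3 animals. The methods name 3 pools for each group, while the labels give 4 for each male group, and the animals that the study counts are fewer than separate pools of 3 would need. The sources do not say whether pools shared animals, so each n, SE and p measures the spread between these pools, which may not be independent. Levels are the log2 of the background-subtracted signal minus the median of the array, so that 0 is the median probe, and levels of different genes are not set against each other.

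The CP secretes cerebrospinal fluid and forms the blood-CSF barrier. Gfra1 encodes the receptor subunit that binds the neurotrophic factor GDNF and signals together with the kinase Ret or the adhesion molecule Ncam1. Crhbp encodes a secreted protein that binds corticotropin-releasing hormone (CRH) and urocortin and keeps them from their receptors. Lingo2 is a leucine-rich repeat membrane protein related to Lingo1, which limits myelination, and Syndig1 is a synaptic membrane protein that associates with AMPA receptors. Adgrg1 is an adhesion G protein-coupled receptor with type III collagen and transglutaminase 2 among its ligands. Fam3d encodes a secreted cytokine-like protein known from the gut, and Impg1 a proteoglycan of the matrix around photoreceptors, so the members are not all neural genes by their known roles. Estradiol acts on genes through receptors that bind an estrogen response element, a pair of inverted half-sites with 3 bases between them.

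RefSeq promoter sequences of build GRCr8, with 250 bases before and 50 after the annotated start, were found for all 7 members and searched on both strands. The complete element, GGTCA and its reverse complement TGACC 3 bases apart, was in none of the 7 and in 0.0269% of all 33469 promoters. A single half-site GGTCA, searched after the first results were seen, was in 3 of the 7 (Crhbp, Syndig1 and Fam3d) and in 40.5% of all promoters. The TATA box TATAAA was in Crhbp alone of the 7 and in 14.2% of all promoters. The E-box CACGTG (6.42% of all promoters) and the cyclic AMP response element TGACGTCA (1.83%) were in none of the 7. The promoter of Gfra1 is shown because its sham female arrays stood far apart from all others, and those of Crhbp and Syndig1 because they carry these letters. Capitals mark the half-site, which begins 184 bases before the Crhbp start and 226 before the Syndig1 start. They also mark the letters TATAAA in Crhbp, which begin 4 bases before the annotated start and run across it.
Gfra1 promoter, chr1:267555762-267556061, minus strand: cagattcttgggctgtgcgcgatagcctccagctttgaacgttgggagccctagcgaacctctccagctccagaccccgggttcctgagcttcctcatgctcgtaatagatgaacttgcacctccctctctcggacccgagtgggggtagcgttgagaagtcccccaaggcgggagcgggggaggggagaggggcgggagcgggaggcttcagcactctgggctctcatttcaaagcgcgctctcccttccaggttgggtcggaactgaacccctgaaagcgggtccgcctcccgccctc
Crhbp promoter, chr2:28439397-28439696, minus strand: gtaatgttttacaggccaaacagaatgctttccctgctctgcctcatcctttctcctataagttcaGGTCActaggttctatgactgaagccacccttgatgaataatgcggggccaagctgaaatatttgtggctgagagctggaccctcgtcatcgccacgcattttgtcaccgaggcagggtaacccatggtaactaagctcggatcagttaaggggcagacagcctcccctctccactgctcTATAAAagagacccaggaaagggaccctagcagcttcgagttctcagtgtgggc
Syndig1 promoter, chr3:158492040-158492339, plus strand: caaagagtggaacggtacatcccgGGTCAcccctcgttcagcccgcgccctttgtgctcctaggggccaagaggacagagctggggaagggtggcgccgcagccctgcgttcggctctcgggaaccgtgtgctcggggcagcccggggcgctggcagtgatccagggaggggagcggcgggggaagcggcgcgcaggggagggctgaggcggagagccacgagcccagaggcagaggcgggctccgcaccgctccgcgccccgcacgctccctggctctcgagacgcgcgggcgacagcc
The Gfra1 window holds 63.0% G and C, that of Crhbp 51.0% and that of Syndig1 73.3%, with a median of 51.7% over all promoters. No match in these windows says only that the letters are absent there.

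All 7 members were called lower in OVX than in sham females by limma at a Benjamini-Hochberg adjusted p under 0.05, where 4.42% of the 15127 genes were called lower, and this call is the one that selected them. The study itself lists Gfra1, Crhbp, Fam3d and Impg1 by these names among its most lowered genes in OVX, ranked by fold change. On the 6 members other than Impg1 the 3 OVX arrays lay below the 3 sham female arrays with no overlap, against 16.2% of all genes. The Impg1 readings did not overlap either, but those of OVX and of sham female 1 were not well above background. The median difference of all genes was -0.07 and of the members -2.38 on the log2 scale. That of the members was -2.14 with Impg1, which was dim in OVX, set there at the detection limit. In males 0 of 7 were called by limma, against 0.0859% of all genes in either direction, and 2 of 7 had an unadjusted p under 0.05, against 6.88%. The arrays of OOX and sham males did not overlap for 1 of 7, Lingo2, against 4.02% of all genes. Over the 6 members other than Impg1, which was dim on every male array, the median male difference was 0.23, with 3 of 6 lower in OOX. The sham female arrays held the highest levels of all 14 arrays in 5 of 7 members. Over the 6 members other than Impg1 the median of OVX minus OOX was -0.23 and of OVX minus sham male -0.06. That of sham female minus sham male was 2.50. The sham female levels helped to select the members, so these values are a description, and the shares over all genes were not computed. Sham females and males shared no slide and no scan day, so sex and scan day cannot be told apart in them.

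**Figure D1:**
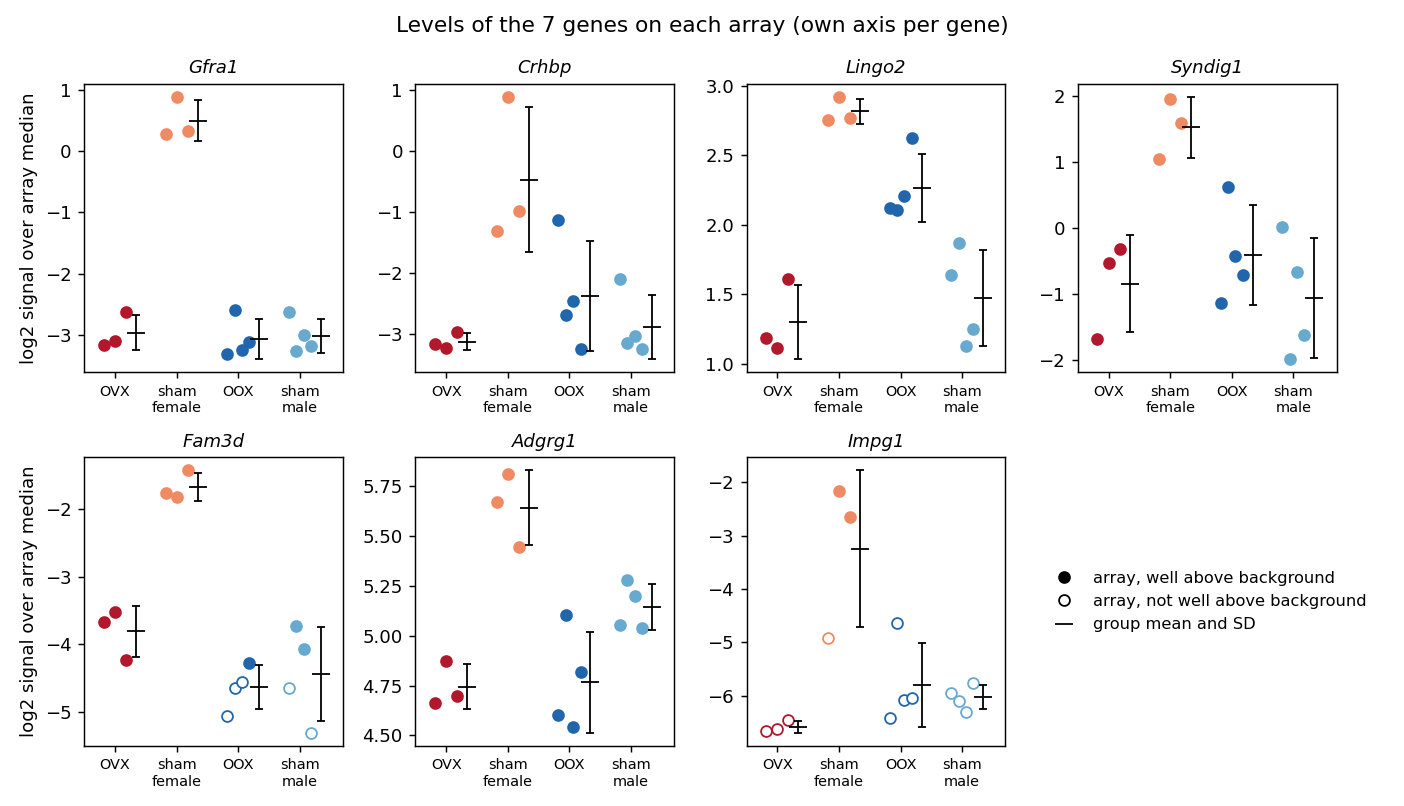
Log2 signal over the array median (vertical axis, its own range for each gene) of the 7 genes on each of the 14 arrays, by group, with open points for arrays on which the probe was not well above background and bars for mean and SD. The sham female arrays stand above the OVX arrays in every panel, and the OVX points of Gfra1 (-3.16 to -2.63) overlap those of both male groups. In the Impg1 panel the OVX points and that of sham female 1 are open.

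Gfra1 showed the largest difference in females of the 6 members that were measured in both female groups. Its level was -3.16, -3.10 and -2.63 in OVX, against 0.28, 0.89 and 0.33 in sham females. In males it was -3.31, -2.58, -3.24 and -3.11 in OOX and -2.63, -3.26, -3.00 and -3.17 in sham males. The sham female arrays stood alone, and the OVX and male arrays lay together, all well above background. The mean was -2.96 ± 0.29 in OVX and 0.50 ± 0.34 in sham females (SD, n = 3 each), a difference of -3.46 (SE 0.23), or 11.0-fold lower, and -2.0 with normexp background correction in place of the scanner software's. OOX minus sham male was -0.05 (SE 0.21; 95% interval -0.53 to 0.43, limma adjusted p = 0.977), and OVX minus OOX was 0.10. On the slide that held both female groups, OVX 1 minus sham female 3 was -3.50.

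Crhbp, the CRH-binding protein, was lower in OVX with more spread among sham females. Its level was -3.16, -3.23 and -2.97 in OVX and -1.31, 0.89 and -0.98 in sham females. It was -1.12, -2.69, -2.45 and -3.24 in OOX, against -2.10, -3.14, -3.03 and -3.24 in sham males. OOX 1 lay between the lowest and the middle sham female, so the sham female levels were not apart from every other array. The mean was -3.12 ± 0.14 in OVX and -0.47 ± 1.19 in sham females, a difference of -2.65 (SE 0.56), or 6.29-fold lower, and -1.37 with normexp. In males the difference was 0.50 (95% interval -0.52 to 1.53, limma adjusted p = 0.911). Within the slide with both male groups, OOX 4 minus the mean of sham male 1 and 2 was -0.62, of opposite sign.

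Lingo2 was the member whose male arrays also separated, in the opposite direction. Its level was 1.18, 1.11 and 1.61 in OVX, against 2.76, 2.92 and 2.77 in sham females. In OOX it was 2.12, 2.10, 2.21 and 2.63, against 1.64, 1.87, 1.12 and 1.25 in sham males, with every OOX array above every sham male array. The female difference was -1.52 (SE 0.17), or 2.86-fold lower in OVX. The male difference was 0.79 (SE 0.21; 95% interval 0.32 to 1.26), or 1.73-fold, with an unadjusted p of 0.0045 and a limma adjusted p of 0.452, so it did not pass the correction. It was 0.87 within the slide that held both male groups. The order of group means was sham female, OOX, sham male and OVX, and the ranges of OVX and sham males overlapped. OVX minus OOX was -0.96 and OVX minus sham male -0.17.

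Syndig1 was lower in OVX and varied between arrays of a group, with an SD of 0.74 in OVX and 0.46 in sham females. Its level was -1.69, -0.54 and -0.32 in OVX and 1.04, 1.96 and 1.59 in sham females. In OOX it was -1.14, 0.63, -0.43 and -0.71, against 0.02, -1.99, -0.67 and -1.62 in sham males. The female groups did not overlap, while both male groups overlapped OVX. The difference was -2.38 in females (SE 0.41), or 5.19-fold lower in OVX, and 0.65 in males (95% interval -0.51 to 1.81, limma adjusted p = 0.877). A second Syndig1 probe averaged -3.79 in OVX and -2.58 in sham females, in the same direction. The OVX array scanned with the sham females, OVX 1, was the lowest of its group, and OVX 1 minus sham female 3 on 1 slide was -3.28.

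Fam3d had levels of -3.67, -3.52 and -4.23 in OVX, against -1.77, -1.82 and -1.43 in sham females, all well above background. Its male levels were -5.05, -4.64, -4.56 and -4.28 in OOX and -4.64, -3.73, -4.07 and -5.31 in sham males, and the probe was well above background on 1 of 4 OOX and 2 of 4 sham male arrays. The female groups were apart, and the male arrays lay near or below the detection limit. The female difference was -2.14 (SE 0.22), or 4.39-fold lower in OVX, and -0.79 with normexp. The mean OVX level was 0.82 above that of OOX as measured, with 3 of the 4 OOX arrays not well above background, and OOX minus sham male was -0.20 (95% interval -0.97 to 0.57, limma adjusted p = 0.958).

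Adgrg1 showed the smallest difference of the 7 in females. Its level was 4.66, 4.88 and 4.70 in OVX and 5.67, 5.81 and 5.44 in sham females. In OOX it was 4.60, 5.10, 4.54 and 4.82, against 5.06, 5.28, 5.20 and 5.04 in sham males. The female groups were apart, and OOX 2 overlapped the sham male range. The difference was -0.90 in females (SE 0.15), or 1.86-fold lower in OVX. In males it was -0.38 (SE 0.16; 95% interval -0.74 to -0.02, unadjusted p = 0.0427, limma adjusted p = 0.648), the only member besides Lingo2 with an unadjusted p under 0.05. A second Adgrg1 probe averaged 0.48 in OVX and 1.13 in sham females, and 0.64 in OOX and 1.05 in sham males.

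Impg1 was at or under the detection limit outside the sham females. Its level was -6.66, -6.63 and -6.47 in OVX, not well above background on any array. In sham females it was -4.92, -2.17 and -2.65, and only replicates 2 and 3 were well above background. It was not well above background on any of the 8 male arrays, where OOX lay at -6.42, -4.64, -6.09 and -6.05 and sham males at -5.94, -6.10, -6.30 and -5.76. With OVX set at the lowest signal judged well above background on each array, the mean of the sham female readings was 2.77-fold higher. That mean includes sham female 1, which was not well above background, so 2.77 is not a lower bound. A second Impg1 probe was not well above background on any of the 14 arrays.

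**Figure D2:**
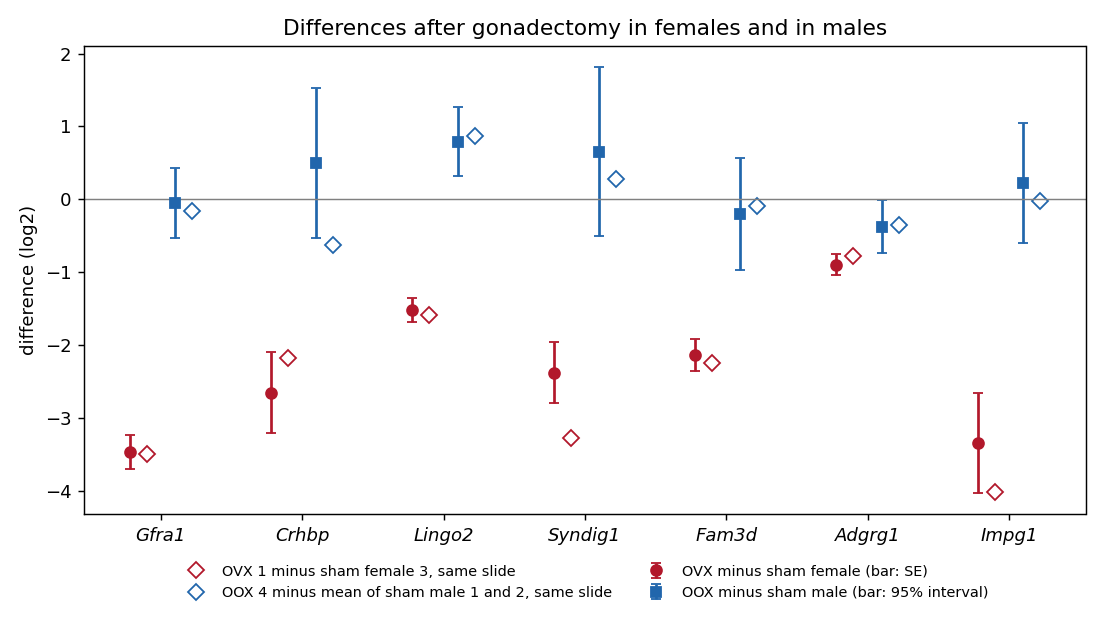
Log2 differences of the 7 genes after gonadectomy: OVX minus sham female with its SE, and OOX minus sham male with its 95% interval; open diamonds are differences between arrays of 1 slide. All female differences lie below 0 (-3.46 to -0.90), and the Impg1 female point lies outside what its probe could measure. The interval of the male difference excludes 0 for Lingo2 and Adgrg1, neither of which passed the adjustment.

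The differences of the plot kept their sign in females on the only slide that held both groups, with 1 array of each. On that slide, with OVX 1 and sham female 3, they were between -3.50 and -0.78 for the 6 members other than Impg1, with a median of -2.21, and Impg1 was dim on OVX 1. The summed signal of neuron markers, described below, was 33.7 on OVX 1 and 77.3 on sham female 3. That of CP epithelium markers was 3080 and 3013. On the day when all sham females and OVX 1 were scanned, OVX 1 minus the mean of the 3 sham females was -3.66 for Gfra1 and -0.98 for Adgrg1. OVX 2 and OVX 3 were scanned on the other day, with all 8 male arrays, so for those arrays scan day and group cannot be told apart. With scan day as a block, or slide as a block, limma called 0 of the 7 in females, as did the methods' t-test with adjustment. Limma called 3 with quantile normalization and 5 each with normexp and with scaling to the 75th percentile. Without a single array limma called between 0 and 5 of the 7: 1 without sham female 1, 5 without sham female 2, 1 without sham female 3, 0 without OVX 1, 0 without OVX 2 and 1 without OVX 3. The counts of all genes called moved with them, 943 with all 6 female arrays and 2 to 951 with 1 left out.

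The pathways of the members were described with 8 lists of 110 other measured genes, of which 6 were called in females by limma (2 higher and 4 lower in OVX) and 0 in males. Of all genes 6.23% were called in females in either direction. At an unadjusted p under 0.05 there were 25 of the 110 in females, where 20% of all genes had one, and 8 in males. The lists were put together with earlier results of these data known.

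**Figure D3:**
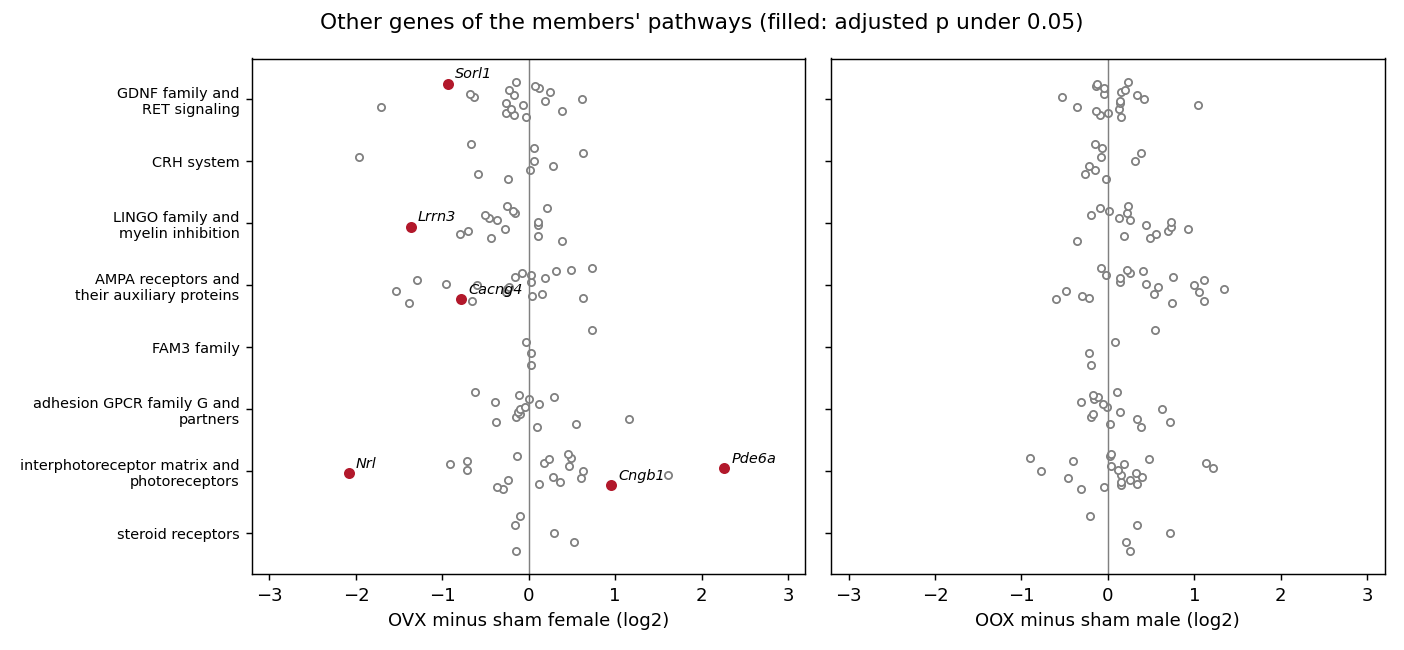
Log2 differences of 110 other genes of the members' pathways in 8 lists, OVX minus sham female (left) and OOX minus sham male (right), with filled points for an adjusted p under 0.05. The 6 named genes passed in females, from Nrl (-2.08) to Pde6a (2.26), and no gene passed in males. Pde6a was not well above background on any sham female array, nor Cacng4 on any female array, so their points are not measured differences.

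In the list of GDNF and Ret signalling 1 of 19 genes was lower in OVX and 0 were higher, and the list had a median difference of -0.17 in females and 0.13 in males. The gene was Sorl1, a sorting receptor of neurons that carries GDNF, at 4.46 ± 0.34 in OVX and 5.40 ± 0.07 in sham females (difference -0.94, SE 0.19, limma adjusted p = 0.042). Ret averaged -2.70 in OVX and -2.47 in sham females (limma adjusted p = 0.40), and Ncam1 0.85 and 1.01 (adjusted p = 0.66). Gdnf, the ligand, averaged -3.31 in OVX and -3.24 in sham females (adjusted p = 0.89). In males it averaged -2.43 in OOX and -3.47 in sham males, a difference of 1.04 that did not pass (limma adjusted p = 0.45).

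None of the 9 other genes of the CRH system passed in either sex, and 1 had an unadjusted p under 0.05 in females. Crh itself was well above background on 0 of 3 OVX arrays, 1 of 3 sham female arrays, 0 of 4 OOX arrays and 1 of 4 sham male arrays. Ucn, which encodes urocortin, averaged -3.23 in OVX and -3.86 in sham females (limma adjusted p = 0.30). The receptor Crhr2 averaged 1.13 in OVX and 0.85 in sham females (adjusted p = 0.34), and Crhr1 -2.99 and -3.01 (adjusted p = 0.98).

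Of 16 other genes of the LINGO family and myelin inhibition, Lrrn3, a leucine-rich repeat membrane protein, was lower in OVX, at -1.28 ± 0.49 against 0.09 ± 0.10 in sham females (difference -1.37, SE 0.25, limma adjusted p = 0.040). Lingo1 averaged 0.59 in OVX and 0.20 in sham females (adjusted p = 0.54). Lingo3 had non-overlapping arrays in both sexes, as Lingo2 did, with differences of -0.44 in females and 0.49 in males, and neither passed (limma adjusted p = 0.139 and 0.503). Of 21 genes of AMPA receptors and their auxiliary proteins, Cacng4 was called lower in OVX at a difference of -0.78, but its probe was dim (not well above background) on all 6 female arrays, so no fold is given. The subunits Gria1 and Gria2 averaged -1.93 and -0.31 in OVX, and -1.68 and -0.08 in sham females (limma adjusted p = 0.87 and 0.75). Syndig1l, the closest relative of Syndig1 on the list, averaged -0.61 in OVX and -1.34 in sham females, in the direction opposite to Syndig1 (limma adjusted p = 0.14).

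None of the 4 other genes of the FAM3 list, Fam3a, Fam3b, Fam3c and the formyl peptide receptor Fpr1, passed in either sex, and Fam3a averaged 3.83 in OVX and 3.81 in sham females, Fam3c 1.96 and 1.99. Fam3b was not well above background on any array. None of the 15 other genes of the list of adhesion receptors of family G and partners passed. Tgm2, which encodes transglutaminase 2, averaged 3.41 in OVX and 4.03 in sham females (limma adjusted p = 0.36), and Col3a1 3.48 and 3.57 (adjusted p = 0.85).

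Of 21 other genes of the interphotoreceptor matrix and photoreceptors, 2 were higher and 1 was lower in OVX. Nrl, the transcription factor of rod cells, was -3.89 ± 0.18 in OVX and -1.80 ± 0.50 in sham females (difference -2.08, SE 0.27, limma adjusted p = 0.040). Pde6a, a subunit of the rod phosphodiesterase, averaged -3.82 in OVX and was not well above background on any sham female array, which makes it at least 1.1-fold higher in OVX (limma adjusted p = 0.0051). Cngb1, a channel subunit of rods, averaged -2.92 in OVX and -3.87 in sham females (difference 0.95, SE 0.17, limma adjusted p = 0.040). Its probe was well above background on only 1 of the 3 sham female arrays, so the size of this difference is uncertain. The 3 genes did not move one way. Impg2, the relative of Impg1, was at -0.42 in OVX 1 and not well above background on the other 13 arrays.

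Among steroid receptors 0 of 5 passed in either sex. Esr1, the estrogen receptor alpha, was not well above background on any of the 14 arrays. Esr2, the beta receptor, averaged -3.05 in OVX and -3.34 in sham females (limma adjusted p = 0.61), and -2.87 in OOX and -3.59 in sham males (adjusted p = 0.21). Pgr, the progesterone receptor, and Gper1, a membrane estrogen receptor, had limma adjusted p of 0.73 and 0.66 in females. Of the 6 pathway genes called in females, 1 was called without sham female 1, OVX 1, OVX 2 or OVX 3 (Pde6a each time), 2 without sham female 3 (Nrl and Pde6a) and 4 without sham female 2. With slide as a block 0 were called.

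The genes whose levels over the 14 arrays were most like the mean standardized profile of the members were ranked among 12526 genes that were detected well above background throughout at least 1 group. These were Kcnj14 (Pearson r = 0.96), Meis1 (0.95), Hoxa2 (0.94), Gstm5 (0.93), Slc22a23 (0.92), Dbh (0.92), Mme (0.91), Sfnl1 (0.90), Vkorc1l1 (0.90) and Smoc2 (0.89). The points are 14 arrays in 4 groups and share the high sham female levels that chose the members, so the correlations are a description. Hoxa2 and Dbh passed the detection filter through the sham females alone. Their values on the other arrays, apart from Dbh on OOX 2, are readings of background. Kcnj14, an inward rectifier potassium channel, was at 1.32, 0.86 and 0.82 in OVX, and 5.84, 5.89 and 5.16 in sham females. It was between 0.46 and 1.41 in all male arrays. The nearest genes of the single members differed: Kcnj14, Meis1 and Slc22a23 for Gfra1, Gstm5, Sbk1 and Tspan9 for Crhbp, and Arhgef19, Bicdl1 and Anxa2 for Lingo2. They were Car8, Kit and Slc22a23 for Syndig1, Sfrp2, Mme and Kcnj14 for Fam3d, Ptprj, Nrp1 and Sema7a for Adgrg1, and Dbh, Pcp2 and Rnf144a for Impg1, with r between 0.81 and 0.98. Impg1 was well above background on sham female 2 and 3 alone. Its ranking, and its part in the mean profile, therefore rest mostly on readings of background. After the group means were subtracted, Gfra1 and Syndig1 correlated at 0.86 over the 14 arrays, the highest of the 15 pairs without Impg1. These pairs had a median of 0.20 and a lowest value of -0.35 (Crhbp and Fam3d), with 5 below 0.

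**Figure D4:**
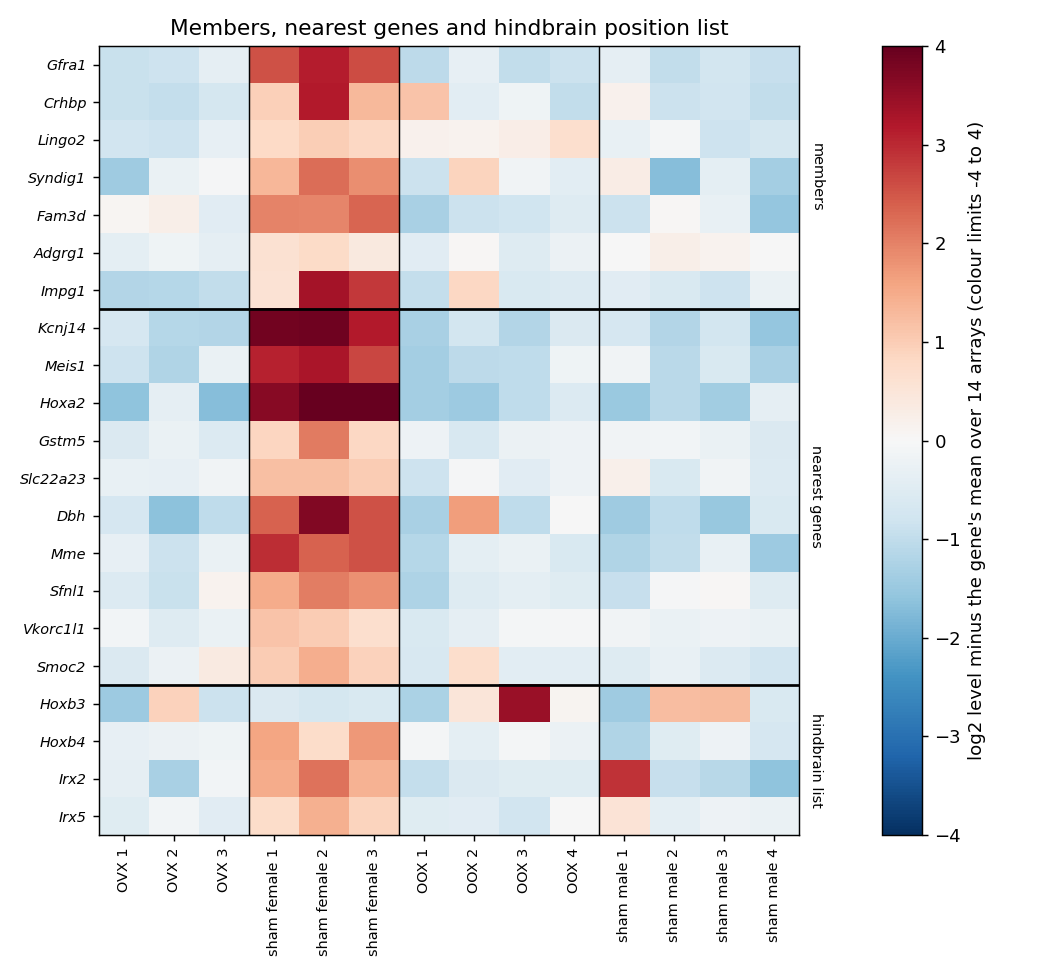
Log2 level minus the mean of the gene over the 14 arrays (colour, limits -4 to 4) for the 7 members, the 10 genes nearest to their mean profile and those genes of the hindbrain position list not already shown, with arrays in columns by group. Sham females have the highest group mean in all rows but Hoxb3, and Irx2 is also high on sham male 1 (2.88 above its mean).

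Marker lists of the tissue and its neighbours were measured beside the members. All 13 measured CP epithelium markers were well above background on every array, and their summed signal was 2257 to 3450 times the array median in OVX and 3013 to 3535 in sham females, 2319 to 3063 in OOX and 2969 to 3393 in sham males. The sum rests on saturated spots, since 6 of the 13 were saturated on 13 or all 14 arrays, so it has a ceiling. None of the 13 passed in either sex. An unadjusted limma p under 0.05 was found for 1 in females and 6 in males, against 20% and 6.88% of all genes. The 6 in males (Ttr, Folr1, Kcnj13, Otx2, Enpp2 and Sostdc1) were the same 6 that were saturated on 13 or all 14 arrays. A saturated spot cannot read above its ceiling, so their differences are not measured. The hindbrain position list holds genes that pattern or mark the hindbrain, which is not the labelled origin of the tissue, and 7 of its 15 genes were measured. Its summed signal was 1.88 to 2.82 in OVX and 18.7 to 27.6 in sham females, and 1.62 to 3.08 in OOX and 1.69 to 4.60 in sham males. Meis1 made up 86.0% to 90.3% of the sum in sham females. Without it the sum was 0.68 to 0.78 in OVX, 2.30 to 3.54 in sham females, 0.64 to 0.86 in OOX and 0.66 to 2.31 in sham males, so that the female groups were apart and the highest sham male reached the lowest sham female. Of the 7, 6 were lower in OVX by limma, where 4.42% of all genes were called lower. In OOX 0 of the 7 were lower, as were 0 of all genes. The list was put together with earlier results of these data known, and the study names Hoxa2, Dbh and Irx2 among its most lowered genes in OVX. The 6 of 7 is therefore a description. Meis1 averaged 0.57 in OVX and 4.34 in sham females (difference -3.77, SE 0.28, limma adjusted p = 0.018). Hoxa2, a homeobox gene of hindbrain segments, was well above background on the 3 sham female arrays and on no other array, at least 12.3-fold lower in OVX. Dbh encodes dopamine beta-hydroxylase, of noradrenaline synthesis, and fell at least 5.30-fold in OVX, and 1 OOX array was the only other with it well above background. Without a single female array 0 to 6 of these 7 genes were called lower: 6 without sham female 2, 1 each without sham female 3, OVX 2 and OVX 3, and 0 without sham female 1 and without OVX 1. The hindbrain genes moved with the members, and their part in the members' differences was not tested.

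The summed signal of oligodendrocyte markers was 311 to 436 in OVX and 441 to 474 in sham females, 298 to 358 in OOX and 234 to 433 in sham males, with sham females above all other arrays by a small margin. That of endothelium and mural markers was 145 to 186 in OVX and 192 to 208 in sham females, and it overlapped OOX at 120 to 206. None of the genes of these lists passed in either sex. The summed signal of 18 neuron markers was 33.7 to 49.5 in OVX and 30.6 to 81.6 in sham females, and 33.2 to 69.9 in OOX and 26.7 to 145.9 in sham males, with 1 of 18 (Nefh) lower in OVX. The fibroblast and meninges list had 3 of 14 genes lower in OVX, with Sfrp2 at -3.11 in OVX and 1.77 in sham females. Its summed signal was 297 to 528 in OVX and 522 to 633 in sham females. At the same threshold 4.42% of all genes were called lower in OVX. Car8 and Pcp2, which Purkinje cells of the cerebellum express, came up by likeness to Syndig1 and Impg1. Pcp2 was 0.14, 1.49 and 0.98 in OVX and 0.76, 4.38 and 3.78 in sham females, and Car8 was -1.69, -0.10 and 0.35 in OVX and 0.37, 4.18 and 3.22 in sham females. Sham female 2 and 3 were high in both, and sham female 1 lay within or just above the range of OVX. Impg1 was likewise well above background on sham female 2 and 3 alone. Gfra1, Lingo2, Syndig1, Fam3d and Adgrg1 were higher on all 3 sham female arrays than on any other array. The part of these markers in the members' values was not tested. In pooled bulk tissue fewer cells of a type and less RNA per cell cannot be told apart.

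**Figure D5:**
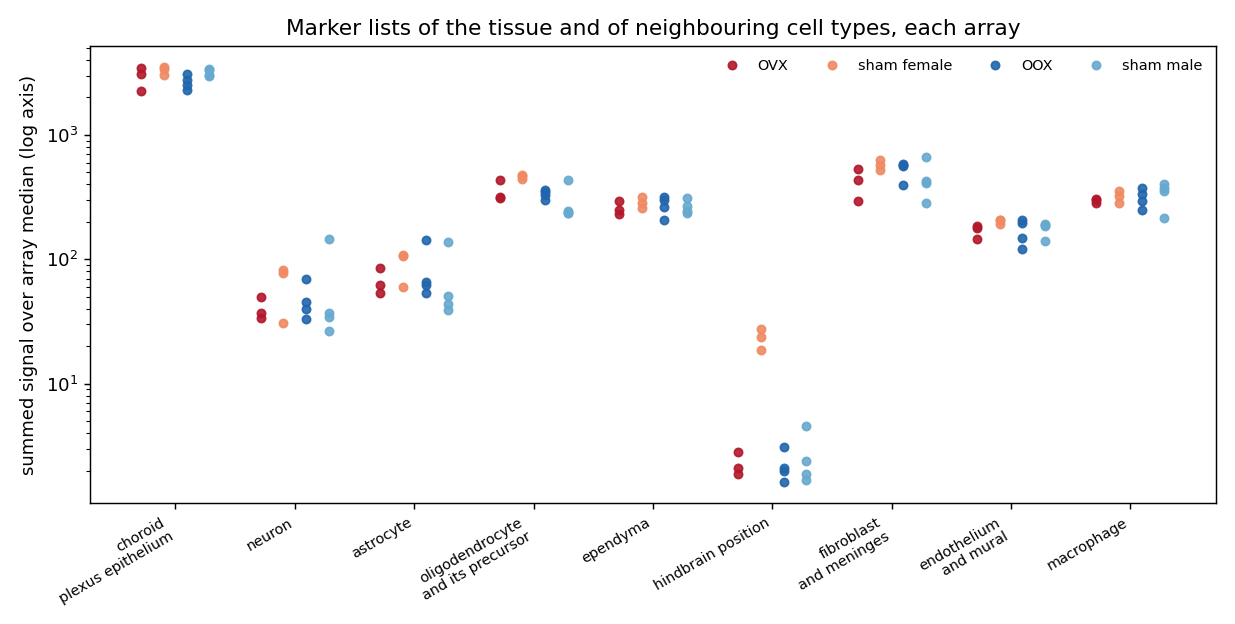
Summed signal over the array median (log axis) of 9 marker lists, 1 point for each array, by group. Sham female arrays stand apart from all other arrays in the hindbrain position list (18.7 to 27.6 against 1.62 to 4.60) and lie just above them in the oligodendrocyte list (441 to 474 against at most 436).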

How the data were processed

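Expression was measured on 14 1-colour (Cy3) Agilent arrays, 1 pool of RNA each (3 OVX, 3 sham female, 4 OOX, 4 sham male). The deposited scanner files hold fluorescence intensity: the authors' scanner software, Feature Extraction 10.5.1.1, had corrected the signal for background and for spatial trends, with no scaling between arrays. The deposited value table holds log2 values that the authors describe as centred on the median, and was used as an alternative. From the intensity, outlier spots were left out, spots of a probe averaged, and log2 values centred on each array's median. Probes were named by accession through RefSeq (GRCr8, names only; the arrays were annotated on rn4): 18004 of 30367 probes took 15154 gene names, and 15127 genes had a probe with a value on all arrays. The probe with the highest mean was used. Well above background were 79.7% to 87.2% of spots per array, on 5 slides scanned on 2 days. The number of arrays limits the precision.

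Groups were compared within each sex with limma 3.58.1 in R 4.3.3, with Benjamini-Hochberg adjustment over 27448 features and a threshold of 0.05; the limma fit and the methods' t-test were tested on simulated data. A probe dim on every array of a group was given as a bound against the lowest signal well above background (log2 -4.80 to -3.78). For Impg1 the value is not a bound, since sham female 1 was dim too. The members and the gene lists were chosen with earlier results of these data known. All members, the list genes with an adjusted p under 0.05 (at most 4 for each list and sex), their main partners and steroid receptors, and the genes nearest by correlation are named; Lingo3 and the marker genes named were chosen after their values were seen. The values of 1 gene of the rule are not reported here. Alternatives were scaling at the 75th percentile or by quantiles, normexp with an offset of 50 (on median spot signals, since mean signals were not used here), a detection filter, inclusion of outlier spots, a joint fit of the 4 groups, a block for slide, for scan day or for replicate number, weights per array, the methods' t-test (unadjusted p under 0.05 and a fold above 1.5, and adjusted), the value table, the mean over probes, and each array left out. A scan day block could not be fitted in males, all scanned on 1 day.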

Additional observations from a re-analysis of the deposited data

Results flagged for a closer look

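Lingo2 and Lingo3 had differences of opposite sign in the 2 sexes, with arrays that did not overlap in either: Lingo2 by -1.52 (OVX minus sham female) and 0.79 (OOX minus sham male), and Lingo3 by -0.44 and 0.49, all on the log2 scale. Neither male difference passed, nor did that of Lingo3 in females, and Lingo2 was selected on its female one. These were 2 of 117 members and pathway genes compared, and the difference between the sexes was not tested. The share of all genes with such opposite differences was not computed, so the count has nothing to be set against. Taken singly, 16.2% of all genes had OVX below sham females with no overlap, and 4.02% had no overlap in males in either direction.

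Among groups of 4 arrays, 11 of the 112 checked had an array far from the other 3. Chance gives about 1 in 20 only for independent values with a normal distribution. The checks mixed log2 levels of genes with marker sums that were not on a log scale, all on the same arrays. The count of 11 can therefore not be set against that rate. No member was among them. Sham male 1 was apart in the summed signal over the array median of neuron (145.9), astrocyte (137.7) and oligodendrocyte markers (433.4), all higher than in the nearest sham male, and of endothelium and mural markers (140.1), lower than in the nearest. It was also apart in the level of Irx2 (0.46). OOX 2 was apart in astrocyte markers (144.1) and in the levels of Gstm5 (4.36), Pde6a (-4.60) and Smoc2 (1.67). OOX 1 was apart in the summed fibroblast and meninges markers (398.2) and in the level of Sfnl1 (2.65). Of the members, Gfra1 and Syndig1 were highest of the sham males on sham male 1 (-2.63 and 0.02). Both were highest of OOX on OOX 2 (-2.58 and 0.63). Crhbp was highest of its group on sham male 1 but not on OOX 2, Adgrg1 on OOX 2 but not on sham male 1. Lingo2 and Fam3d were so on neither. The part of the markers in these levels was not tested.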

How the results depend on the processing

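The female difference of every member stayed below 0 in all alternatives. Its median over the 7 (-2.38) was -1.37 with normexp (Gfra1 -2.0, Crhbp -1.37, Fam3d -0.79), -1.95 with the mean over probes, -2.69 with scan day as a block, and -2.64 to -2.16 with 1 array left out. In males 0 members were called under any limma fit, and 1 (Lingo2) by the methods' t-test at its own thresholds. The male difference changed sign for Crhbp (-0.62) and Impg1 (-0.026) with slide as a block, and for Impg1 (-0.24) with normexp. With 1 array left out it ranged from -0.205 to 0.0825 for Gfra1 (above 0 without OOX 1, OOX 3 or sham male 1), from -0.486 to 0.0385 for Fam3d (above 0 without sham male 2) and from -0.16 to 0.434 for Impg1. None of these had been called. OVX minus OOX of Impg1 changed sign with normexp (0.14). Impg1 was not well above background on any OVX or male array, so its values here are readings of background without an order.

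Counts of calls moved with the setting. In females, pathway genes (6) and all genes (943) were 2 and 64 with quantiles, 2 and 112 with normexp, 3 and 230 with all groups in 1 fit, 0 and 0 with slide blocked, and 1 and 14 with scan day blocked. They were 1 and 3 by the adjusted methods' t-test and 13 and 1679 by the unadjusted one. A filter on dim probes gave 188 genes. With 1 array left out they ranged from 1 to 6 and from 2 to 951. In males, all genes (13) were 0 with normexp, 0 with all groups in 1 fit, 27 with array weights, and 0 and 352 by the adjusted and unadjusted methods' t-test, the last with 4 pathway genes. With 1 array left out they ranged from 6 to 12. The cause was not tested, other than that blocks and left-out arrays leave fewer degrees of freedom.

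Replicate numbers did not pair the samples: deviations from the group means of same-numbered arrays correlated at -0.02 to 0.14 in females and -0.31 to 0.14 in males. With a replicate block 0 pathway genes and 0 genes were called in females, and 8 genes in males. Members near background (Impg1, and Fam3d in males) have uncertain levels.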
